A study of Arabidopsis thaliana with 12 samples.

Results

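Genes for the proteins of the cytosolic 40S ribosomal subunit were followed in Arabidopsis roots after a Dof transcription factor was induced with estriol. The 60 listed loci were kept where the probe annotation maps an entry to that gene alone, and this left 43 genes of the 16548 genes tested. They belong to 20 of the 25 listed protein families. The other 17 loci are not analysed here, and 2 of these (AT3G45030 and AT5G62300, both of the S20 family) share an entry with other genes. All loci listed for the S5, S6, S15a, S18 and Sa families are among the 17, so the S6 kinase substrate S6 is not followed. RefSeq gives the 43 genes no symbol of their own, so they are called by locus, and their protein family is assigned from general knowledge of Arabidopsis ribosomal proteins.

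The estriol groups came from 3 lines, each with a Dof gene in ER8, a vector whose insert is switched on by an estrogen. The ER8Dof1.1 line had the background labelled S32/Col, and the ER8Dof2.2 and ER8PEAR2 lines had SUC2p::GFP-GUS. Where the ER8Dof1.1 line is compared with another line, the background and the induced gene thus cannot be told apart. Roots of 68-hour-old plants were taken whole after 16 h on plates with 10 µM estriol, against 16 h on mock plates for the mock group of each line. The lines are called Dof1.1, Dof2.2 and PEAR2 roots below. Each of the 6 groups had 2 biological replicates, which gave 12 one-colour arrays of biotin-labelled total RNA. Plants grew on GM plates in continuous light at 23 C, and no line without a Dof construct was analysed, so an effect of estriol itself and of the induced gene cannot be told apart. Levels are log2 signals as deposited, changes are estriol minus mock on that scale, and the number of arrays limits the precision. In entire roots, fewer cells of a type and less RNA per cell cannot be told apart.

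The 40S subunit binds messenger RNA, scans for the start codon and reads codons at its decoding centre, while the 60S subunit joins amino acids. Its proteins are made in near-equal numbers, fold onto the 18S ribosomal RNA in the nucleolus, and in plants are encoded by small families of paralogues with nearly the same protein. Ribosomal protein transcripts are abundant where cells grow and divide, as in root tips. The head of the subunit, its body, its platform and the messenger RNA entry channel hold different proteins, and the genes are taken in that grouping below, with positions and contacts as known mainly from yeast and bacterial ribosomes. All 43 genes passed the filter on low signal, with group means of 2.925 to 12.65, and the array maxima were 13.81 to 14.17.

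Most of the 43 genes had slightly higher signals on estriol than on mock plates, and no gene changed as much as 2-fold in a line. The median change was 0.27 in Dof1.1 roots, 0.26 in Dof2.2 roots and 0.13 in PEAR2 roots, against 0.11, 0.11 and 0.03 over all genes tested. Changes were above 0 for 41, 43 and 38 of the 43 genes in Dof1.1, Dof2.2 and PEAR2 roots. The change was above 0 in all 3 lines for 38 of the 43 genes, where 38.6% of all genes tested showed this.

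Past an adjusted p of 0.05 (limma, adjusted over all genes tested by the method of Benjamini and Hochberg), few single genes rose. In Dof1.1 roots 6 rose and none fell, where 17.8% of all genes tested rose and 16.2% fell. In Dof2.2 roots 1 rose and none fell, beside 14.8% and 13.6% of all genes. In PEAR2 roots 1 rose and none fell, beside 8.33% and 10.4%. At an unadjusted p under 0.05 there were 10, 8 and 1 genes in Dof1.1, Dof2.2 and PEAR2 roots, beside 42.9%, 38.5% and 29.6% of all genes. In the mean over the lines 15 of the 43 genes rose and 0 fell, where 26.2% of all genes rose and 19.8% fell. The shift was small and in one direction for most genes. With same-numbered arrays of a line taken as pairs, 12 genes rose in Dof1.1 roots (background 21.2%), 7 in Dof2.2 roots (18.7%), 1 in PEAR2 roots (10.2%) and 25 in the mean (29.7%). These included all the genes that rose without pairs. As shares of the 43 genes, 14.0% rose without pairs and 27.9% with pairs in Dof1.1 roots, 2.33% and 16.3% in Dof2.2 roots, 2.33% and 2.33% in PEAR2 roots, and 34.9% and 58.1% in the mean. The Dof1.1 share was thus under its background without pairs and over it with pairs.

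**Figure D1:**
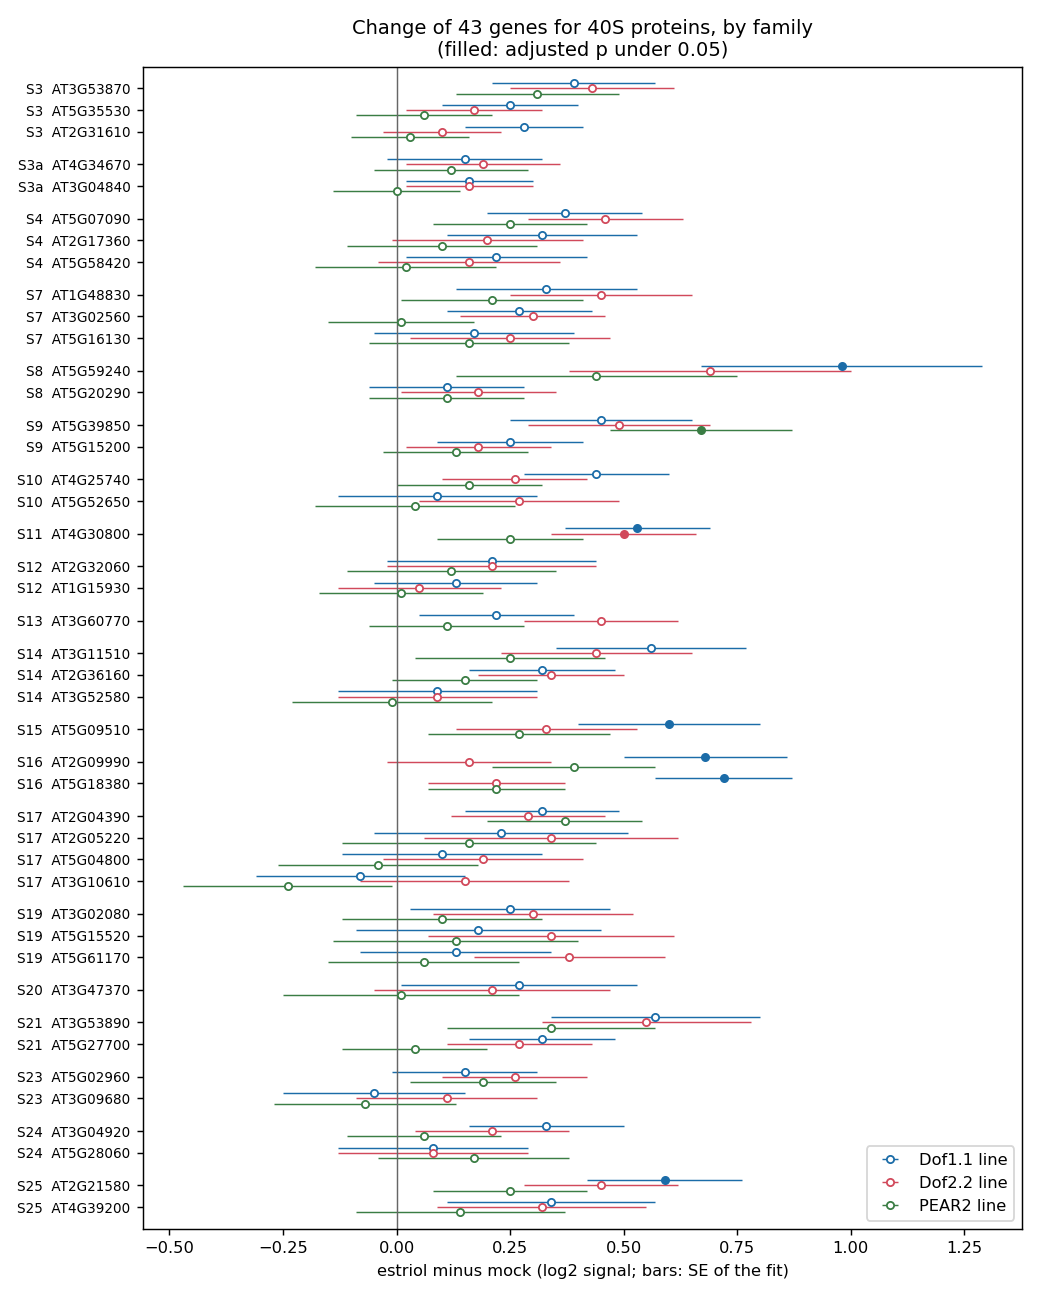
Estriol minus mock change (log2 signal, x axis) of the 43 genes for 40S proteins, grouped by family, in Dof1.1, Dof2.2 and PEAR2 roots, with the SE of the fit as bars and filled points for an adjusted p under 0.05. Nearly all points lie to the right of 0, and AT5G59240 of the S8 family reaches 0.98 in Dof1.1 roots.

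The replicates of the Dof1.1 line stood apart for these genes. On mock plates all 43 genes were higher in array 2 than in array 1, with a median gap of 0.41, and on estriol plates 41 were higher in array 2, with a median gap of 0.36. Over all genes tested the gaps had medians of 0.03 and 0.02, and in the groups of the Dof2.2 and PEAR2 lines the 40S medians were within 0.09. Compared within same-numbered arrays, the median estriol minus mock change of the 40S genes was 0.33 and 0.22 in Dof1.1 roots, 0.20 and 0.31 in Dof2.2 roots, and 0.13 and 0.13 in PEAR2 roots. Leaving out Dof1.1 mock array 1 or estriol array 2 took the median change in that line to 0.06 or 0.10 and the count of genes that rose to 1 or 2. Leaving out Dof1.1 mock array 2 gave 0.50 and 10 genes. In the mean of the Dof2.2 and PEAR2 lines alone, the median change was 0.20, beside 0.0725 over all genes, and 5 genes rose beside 18.8% of all genes. In that mean 42 of 43 genes were above 0, and the share of all genes above 0 was not taken.

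**Figure D2:**
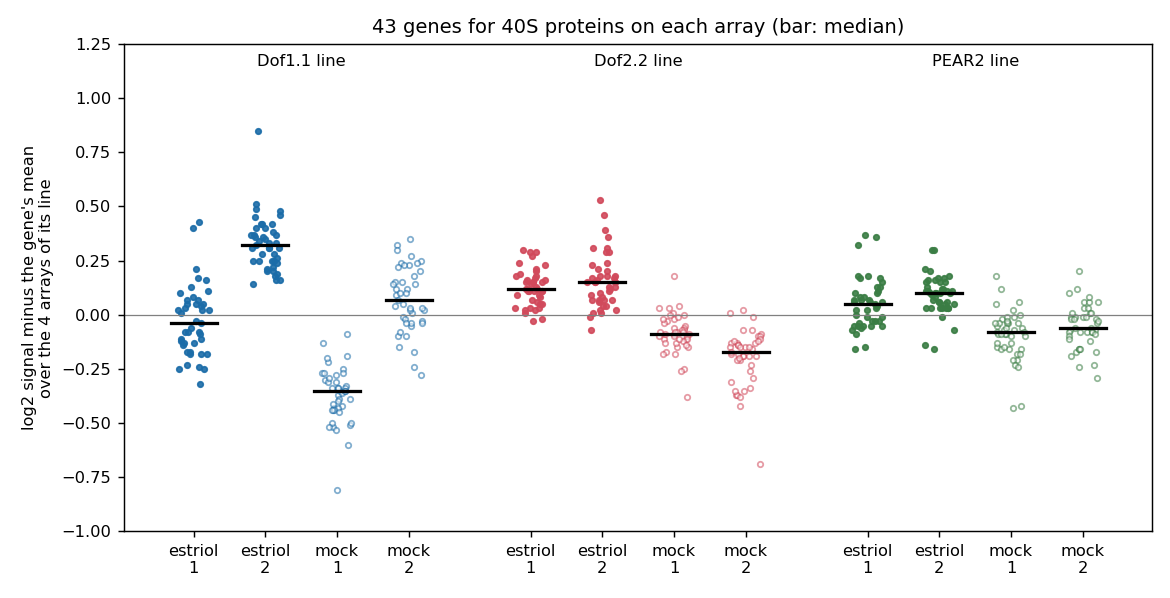
Signal of each of the 43 genes on each of the 12 arrays, as log2 signal minus the gene's mean over the 4 arrays of its line, with black bars at the medians. Estriol array 2 of the Dof1.1 line lies highest (median 0.32) and mock array 1 of that line lowest (median -0.35), and in Dof2.2 roots both estriol medians (0.12 and 0.15) lie above both mock medians (-0.09 and -0.17).

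Counted array by array, both estriol arrays lay above both mock arrays for 16 genes (37.2%) in Dof1.1 roots, 37 (86.0%) in Dof2.2 roots and 28 (65.1%) in PEAR2 roots. Over all genes tested the shares were 37.4%, 37.7% and 33.6%. The reverse order was seen for 0, 0 and 1 genes, beside 25.7%, 23.6% and 28.2% of all genes. Estriol arrays lay above mock arrays in all 3 lines for 11 of the 43 genes, where 19.2% of all genes did so.

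At the messenger RNA entry channel sit S3, S9 and S10, and each family held 1 gene that rose in the mean over the lines. AT5G39850 of the S9 family had estriol signals of 9.37 and 9.75, against mock signals of 9.03 and 9.19, in Dof1.1 roots. In Dof2.2 roots it had 8.31 and 8.74 on estriol plates and 7.90 and 8.18 on mock plates. In PEAR2 roots it had 9.53 and 9.47 on estriol plates and 8.74 and 8.93 on mock plates. The groups did not overlap in any line. The change was 0.45 ± 0.20 (SE, n = 2 arrays a group, as for all changes in a line), 0.49 ± 0.20 and 0.67 ± 0.20 in Dof1.1, Dof2.2 and PEAR2 roots. In PEAR2 roots alone it passed the threshold (limma adjusted p = 0.0392), and with paired arrays it passed in every line (adjusted p = 0.0342, 0.0307 and 0.0159). Its mean rise of 0.53 ± 0.11 (adjusted p = 0.0029) kept an adjusted p of 0.00175 to 0.011 without each single array. AT5G15200, the other S9 gene, had a mean change of 0.19 ± 0.09 (adjusted p = 0.121).

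S3 lies at the mouth of the same channel, where in bacteria it helps unwind messenger RNA. AT3G53870 of this family had 9.13 and 9.46 on estriol and 8.73 and 9.09 on mock plates in Dof1.1 roots. It had 8.72 and 8.55 on estriol and 8.37 and 8.05 on mock plates in Dof2.2 roots, and 9.78 and 9.76 on estriol and 9.47 and 9.45 on mock plates in PEAR2 roots. All estriol arrays were higher than the mock arrays of their line, and it rose by 0.37 ± 0.10 in the mean (adjusted p = 0.014). With paired arrays AT3G53870 also passed in Dof1.1 roots (adjusted p = 0.0298) and Dof2.2 roots (0.0247). AT2G31610 and AT5G35530, the other S3 genes, had mean changes of 0.14 and 0.16 and did not pass the threshold. AT4G25740 of the S10 family, whose protein neighbours S3, rose by 0.29 ± 0.09 in the mean (adjusted p = 0.0245), and AT5G52650 had 0.13 ± 0.13. In Dof1.1 roots AT4G25740 had an adjusted p of 0.0543, and 0.0223 with paired arrays.

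In the body of the subunit are S4, S8, S11, S24 and S23, the last of which lines the decoding centre. AT5G59240 of the S8 family had the largest mean change of the 43 genes. Its signals in Dof1.1 roots were 5.40 and 6.12 on estriol plates, against 4.46 and 5.10 on mock plates. In Dof2.2 roots they were 4.81 and 5.19 on estriol and 4.66 and 3.97 on mock plates, and in PEAR2 roots 5.55 and 5.25 on estriol and 4.97 and 4.95 on mock plates. Estriol arrays were above mock arrays in each line, with an SD within a group of up to 0.509. The change was 0.98 ± 0.31 in Dof1.1 roots (1.97-fold, adjusted p = 0.0338, and 0.0189 to 0.233 without single arrays), 0.69 ± 0.31 in Dof2.2 roots and 0.44 ± 0.31 in PEAR2 roots. The mean rise was 0.70 ± 0.18 (adjusted p = 0.00865). Its paralogue AT5G20290 had 10.82 and 11.19 on estriol and 10.75 and 11.05 on mock plates in Dof1.1 roots, where the groups overlapped. In Dof2.2 and PEAR2 roots the estriol arrays of AT5G20290 lay above its mock arrays, and its mean change was 0.13 ± 0.10.

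S11 binds the 18S ribosomal RNA early in the building of the subunit. Its gene AT4G30800 had 6.17 and 6.36 on estriol, against 5.57 and 5.90 on mock plates, in Dof1.1 roots. It had 5.48 and 5.59 on estriol and 5.16 and 4.91 on mock plates in Dof2.2 roots, and 6.32 and 6.27 on estriol and 6.09 and 6.01 on mock plates in PEAR2 roots. AT4G30800 was the only one of the 43 genes to rise past the threshold in more than 1 line without pairs, by 0.53 ± 0.16 in Dof1.1 roots (adjusted p = 0.0277) and 0.50 ± 0.16 in Dof2.2 roots (adjusted p = 0.041). Its change in PEAR2 roots was 0.25 ± 0.16 (adjusted p = 0.363), and the test of the difference from the PEAR2 line gave an adjusted p of 0.646 for Dof1.1 and 0.795 for Dof2.2. Without single arrays the adjusted p was 0.0182 to 0.17 and 0.0305 to 0.219 in Dof1.1 and Dof2.2 roots.

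Among the remaining genes of the body, AT5G07090 of the S4 family rose by 0.36 ± 0.10 in the mean (adjusted p = 0.0113), with estriol arrays above mock arrays in all 3 lines. With paired arrays it also passed in Dof1.1 roots (adjusted p = 0.0466) and Dof2.2 roots (0.0266). AT2G17360 and AT5G58420, the other S4 genes, had 0.21 and 0.13, and AT2G17360 passed with paired arrays (adjusted p = 0.0334). The S24 genes AT3G04920 and AT5G28060 had mean changes of 0.20 and 0.11, and AT3G04920 passed with paired arrays (adjusted p = 0.0428). AT5G02960 of the S23 family had a mean change of 0.20 ± 0.09 (adjusted p = 0.105, and 0.0366 with paired arrays). AT3G09680, the other S23 gene, had -0.05, 0.11 and -0.07 in Dof1.1, Dof2.2 and PEAR2 roots, and a mean change of 0.00 ± 0.12.

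The platform, next to the messenger RNA exit, holds S3a, S7, S13, S14 and S21, the last at its junction with the body. AT3G53890 of the S21 family had 9.44 and 9.88 on estriol, against 8.78 and 9.40 on mock plates, in Dof1.1 roots. It had 9.38 and 9.61 on estriol and 9.09 and 8.80 on mock plates in Dof2.2 roots, and 9.51 and 9.59 on estriol and 9.14 and 9.28 on mock plates in PEAR2 roots. The groups did not overlap in any line, and the mean rise was 0.49 ± 0.13 (adjusted p = 0.0113). With paired arrays AT3G53890 also passed in Dof1.1 roots (adjusted p = 0.0314) and Dof2.2 roots (0.0398), and in the mean its paralogue AT5G27700, with a change of 0.21 ± 0.09, did so too (0.0391, against 0.0942 without pairs). In the S14 family AT3G11510 rose by 0.42 ± 0.12 (adjusted p = 0.0172) and AT2G36160 by 0.27 ± 0.09 (adjusted p = 0.04) in the mean, while AT3G52580 had 0.06 ± 0.13. AT3G11510 also passed with paired arrays in Dof1.1 roots (adjusted p = 0.0125) and Dof2.2 roots (0.0318). AT1G48830 of the S7 family rose by 0.33 ± 0.11 in the mean (adjusted p = 0.0369), and AT3G02560 and AT5G16130 both had 0.19. With paired arrays AT3G02560 and AT5G16130 passed in the mean (adjusted p = 0.0426 and 0.0382) and AT1G48830 passed in Dof2.2 roots (0.0263). The S13 gene AT3G60770 had a mean change of 0.26 ± 0.10 (adjusted p = 0.0558, and 0.0393 with paired arrays), and the S3a genes AT3G04840 and AT4G34670 had 0.11 and 0.15.

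The head holds S12, S15, S16, S17, S19, S20 and S25. S16 reaches the transfer RNA in the peptidyl site with its tail, and its genes AT5G18380 and AT2G09990 had the lowest p-values of the 43 genes in Dof1.1 roots. AT5G18380 had 10.20 and 10.11 on estriol, against 9.36 and 9.52 on mock plates, in that line. In Dof2.2 roots it had 9.10 and 8.90 on estriol and 8.87 and 8.70 on mock plates, and in PEAR2 roots 10.63 and 10.63 on estriol and 10.29 and 10.53 on mock plates. Estriol arrays were higher in all lines, and in Dof1.1 roots the gap was several times the spread within a group.

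AT5G18380 rose by 0.72 ± 0.15 in Dof1.1 roots (limma adjusted p = 0.00405), and 0.00518 to 0.0302 was the range without single arrays, so it was the 1 call in that line that no left-out array ended. The changes in Dof2.2 and PEAR2 roots were 0.22 ± 0.15 and 0.22 ± 0.15. AT2G09990 had 4.26 and 4.51 on estriol and 3.61 and 3.81 on mock plates in Dof1.1 roots and rose by 0.68 ± 0.18 there (adjusted p = 0.0152). It was faint in every line. Its mean signal of 3.71 in the Dof1.1 mock group was near the lower quartiles of all entries on those arrays (3.55 and 3.57). The means of 2.925 in the Dof2.2 mock group and 3.695 in the PEAR2 mock group lay below the lower quartile. In the Dof2.2 and PEAR2 lines it changed by 0.16 ± 0.18 and 0.39 ± 0.18, neither past the threshold.

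S15 and S25 complete the head genes that rose in Dof1.1 roots. AT5G09510, an S15 gene whose protein reaches toward the decoding centre, had 7.30 and 7.59 on estriol and 6.64 and 7.05 on mock plates there, a rise of 0.60 ± 0.20 (adjusted p = 0.0374, and 0.0235 to 0.226 without single arrays). AT2G21580 of the S25 family had 10.28 and 10.01 on estriol and 9.35 and 9.77 on mock plates, a rise of 0.59 ± 0.17 (adjusted p = 0.0213, and 0.00832 to 0.146 without single arrays). S25 is known in yeast and mammals for its part in initiation at internal entry sites. Both genes had estriol arrays above mock arrays in all 3 lines and rose in the mean, AT5G09510 by 0.40 ± 0.11 (adjusted p = 0.0146) and AT2G21580 by 0.43 ± 0.10 (adjusted p = 0.00434). AT4G39200, the other S25 gene, had a mean change of 0.27 ± 0.14 (adjusted p = 0.141, and 0.0251 with paired arrays).

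The S17 family, whose protein lies on the head, was measured by 4 genes that differed among themselves. AT2G04390 rose by 0.33 ± 0.10 in the mean (adjusted p = 0.0223), and AT2G05220 and AT5G04800 had 0.24 and 0.08. With paired arrays AT2G05220 passed too (adjusted p = 0.0266). AT3G10610 had the lowest mean change of the 43 genes, -0.06 ± 0.13. Its signals were 9.21 and 9.78 on estriol and 9.26 and 9.88 on mock plates in Dof1.1 roots, 9.41 and 9.50 on estriol and 9.30 and 9.31 on mock plates in Dof2.2 roots, and 9.13 and 9.06 on estriol and 9.26 and 9.41 on mock plates in PEAR2 roots. It was the 1 gene of the 43 with both estriol arrays below both mock arrays, in PEAR2 roots. The S19 genes AT3G02080, AT5G15520 and AT5G61170 had mean changes of 0.22, 0.21 and 0.19, the S12 genes AT2G32060 and AT1G15930 had 0.18 and 0.06, and the S20 gene AT3G47370 had 0.16. None of these passed the threshold without pairs, and AT2G32060 did with paired arrays (adjusted p = 0.0467).

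Paralogues of one family differed in response in 12 of 31 pairs, at an unadjusted p under 0.05. For each pair the difference between paralogues was taken within each array. This removes a factor common to both genes, but not a shift that depends on signal level. The estriol minus mock change of the difference was averaged over the lines. An exact two-sided permutation test of estriol and mock labels within each line had 216 arrangements and a smallest possible p of 0.00926. The 12 pairs came from 8 of 16 families, and the median difference over the 31 pairs was 0.15. Pairs of one family share genes, p-values were not adjusted over the pairs, and nearly identical paralogues may share probe signal, since the probe sequences were not examined. Pairs of other genes were not put to this test, so no background share stands beside the 12 of 31 pairs. Whether paralogues differ in response more or less often than other pairs of genes was thus not tested.

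The 4 pairs at the smallest possible p came from the S8, S17 and S21 families. AT5G59240 exceeded AT5G20290 (S8) by 0.57 in response, with 0.88, 0.51 and 0.34 in Dof1.1, Dof2.2 and PEAR2 roots. AT2G04390 exceeded AT3G10610 (S17) by 0.38, with 0.40, 0.14 and 0.61 in these lines. AT2G05220 exceeded the same AT3G10610 by 0.30. AT3G53890 exceeded AT5G27700 (S21) by 0.28, and its 3 lines were alike at 0.26, 0.28 and 0.31. In each of these pairs the difference was higher on both estriol arrays than on both mock arrays in all 3 lines.

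Further pairs differed with overlapping arrays in at least 1 line. AT3G11510 exceeded AT3G52580 (S14) by 0.36 (exact permutation p = 0.0185), AT5G39850 exceeded AT5G15200 (S9) by 0.35 (p = 0.037, exact), AT3G53870 exceeded AT2G31610 (S3) by 0.24 (p = 0.0185, exact) and AT5G07090 exceeded AT5G58420 (S4) by 0.23 (p = 0.0185, exact). The S23, S25 and S10 pairs with the largest differences had 0.20, 0.16 and 0.15 (exact permutation p = 0.0741, 0.296 and 0.102). By contrast the S16 genes differed by 0.02 (exact permutation p = 0.796), and the 3 pairs of S19 genes by 0.00 to 0.03 (exact permutation p = 0.639 to 1). In 13 of 20 families a measured gene rose in the mean over the lines, where 26.2% of all genes rose. Of the 16 families with at least 2 measured genes, all measured genes rose in 1, the S16 family with the faint AT2G09990. Some but not all rose in 10. With paired arrays, where 29.7% of all genes rose, a measured gene rose in 17 of the 20 families. All measured genes then rose in 4 families (S7, S16, S21 and S25), and some but not all in 10. These counts depend on family size and on the shares over all genes, and no background for families was worked out.

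**Figure D3:**
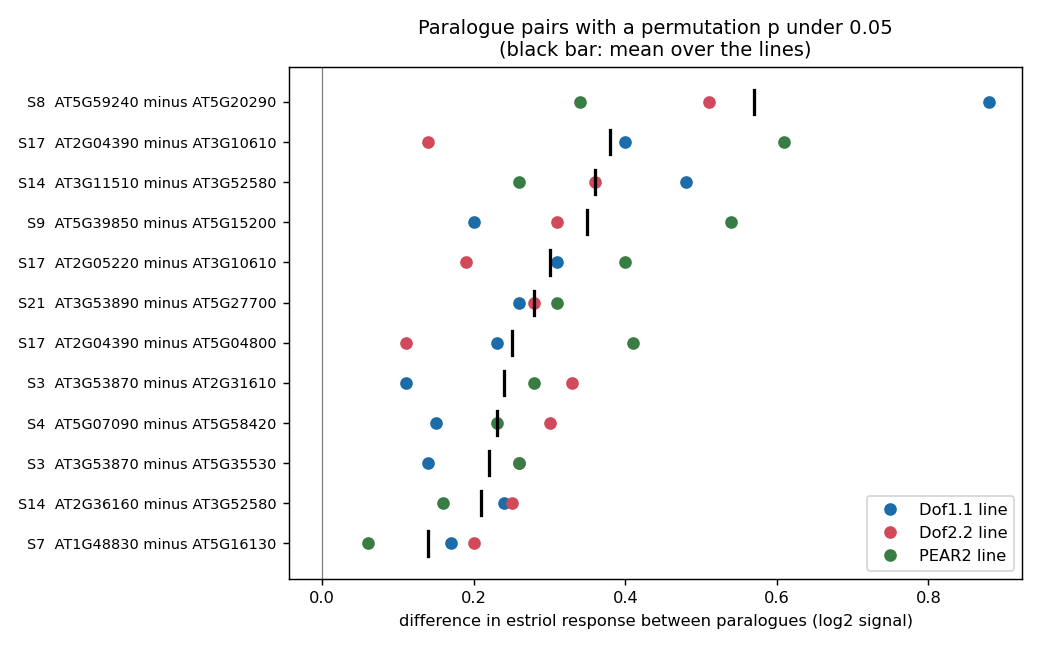
The 12 paralogue pairs with an exact permutation p under 0.05, as the difference in estriol response between the paralogues (log2 signal, x axis) in each line, with a black bar at the mean over the lines. All points lie above 0, between 0.06 and 0.88, and the lines lie closest together for the S21 pair.

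**Figure D4:**
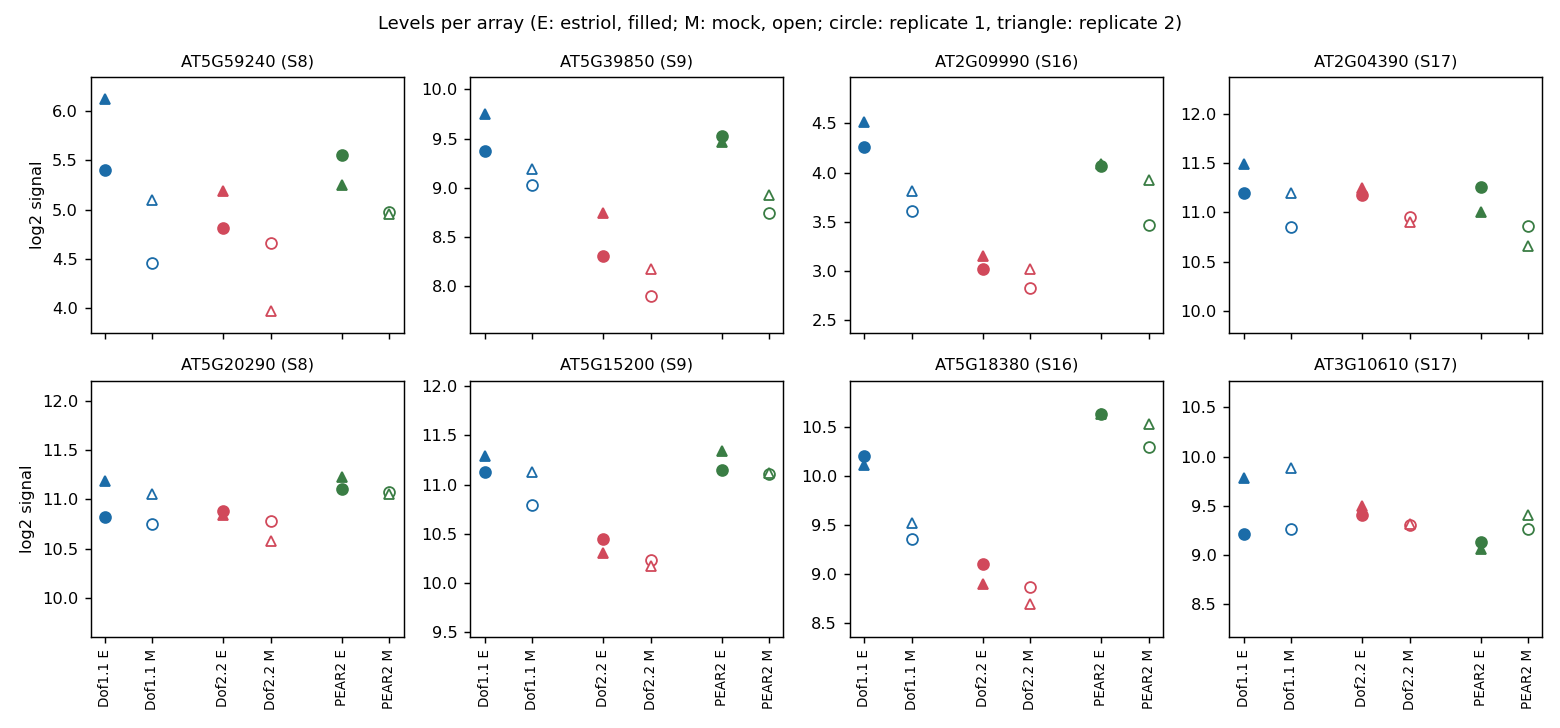
Log2 signals on each array for the paralogues of the S8, S9, S16 and S17 families, with estriol arrays filled and left of the open mock arrays of their line, circles for replicate 1 and triangles for replicate 2. Every panel spans the same range of log2 units. AT5G59240 (S8) and AT5G39850 (S9) are separated by treatment in each line. Their paralogues AT5G20290 and AT5G15200 overlap in Dof1.1 roots and are separated by treatment in Dof2.2 and PEAR2 roots.

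The responses were not shown to differ between the lines for any of the 43 genes. By limma's test of the difference 0 passed for Dof1.1 minus Dof2.2, for Dof1.1 minus PEAR2 and for Dof2.2 minus PEAR2, where 1.53%, 2.91% and 1.66% of all genes tested passed, and at an unadjusted p under 0.05 there were 1, 1 and 0 genes, beside 11.0%, 15.5% and 11.6% of all genes. AT5G18380 of the S16 family was that gene in the first 2 cases. Its response was 0.50 ± 0.21 above that of the Dof2.2 line (95% interval 0.03 to 0.97, adjusted p = 0.412) and 0.50 ± 0.21 above that of the PEAR2 line (0.02 to 0.97, adjusted p = 0.294). With paired arrays 0 of the 43 genes passed by the adjusted p in each of the 3 differences. The median difference over the 43 genes was 0.00 for Dof1.1 minus Dof2.2, 0.15 for Dof1.1 minus PEAR2 and 0.16 for Dof2.2 minus PEAR2, beside 0.01, 0.06 and 0.05 over all genes. A 2-fold rise lay outside the 95% interval of 37 genes in Dof1.1 roots, 41 in Dof2.2 roots and 41 in PEAR2 roots.

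Levels between lines depended on the normalization. On mock plates the deposited signals of the 43 genes were a median 0.29 higher in Dof1.1 than in Dof2.2 roots, and the difference was -0.10 after quantile normalization of all arrays. Dof1.1 minus PEAR2 had a median of -0.28 as deposited and 0.08 after normalization, and Dof2.2 minus PEAR2 had -0.70 and 0.09. The sign turned in all 3 cases, so no order of the lines is given.

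Genes for the proteins of the 60S subunit gave a comparison, with no test between the lists. Of 128 listed loci 88 were measured, with median changes of 0.25, 0.25 and 0.09 in Dof1.1, Dof2.2 and PEAR2 roots. In these lines 6, 7 and 0 rose (6.82%, 7.95% and 0%, beside 17.8%, 14.8% and 8.33% of all genes), and in the mean 24 rose (27.3%, beside 26.2%), with a median of 0.21. With paired arrays 20, 13 and 1 rose in the lines and 44 in the mean. No 60S gene fell without pairs, and 1 fell in the mean with pairs. The 40S genes had a median of 0.21 in the mean as well. In PEAR2 roots changes were above 0 for 88.4% of the 40S genes and 77.3% of the 60S genes, beside 53.3% of all genes. The shares in Dof1.1 roots were 95.3% and 95.5%. All 40S genes and 95.5% of the 60S genes were above 0 in Dof2.2 roots. Both estriol arrays lay above both mock arrays for 65.1% and 39.8% in PEAR2 roots, beside 33.6% of all genes. For Dof1.1 roots these were 37.2% and 38.6%, beside 37.4%, and for Dof2.2 roots 86.0% and 77.3%, beside 37.7%. AT1G74050 rose by 0.84 ± 0.15 in Dof1.1 roots (adjusted p = 0.00158), and AT4G02230 by 0.51 ± 0.09 in the mean (adjusted p = 0.00111). The Dof1.1 replicates were apart here too, with 86 of 88 genes above their line mean on estriol array 2 and 3 of 88 on mock array 1.

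**Figure D5:**
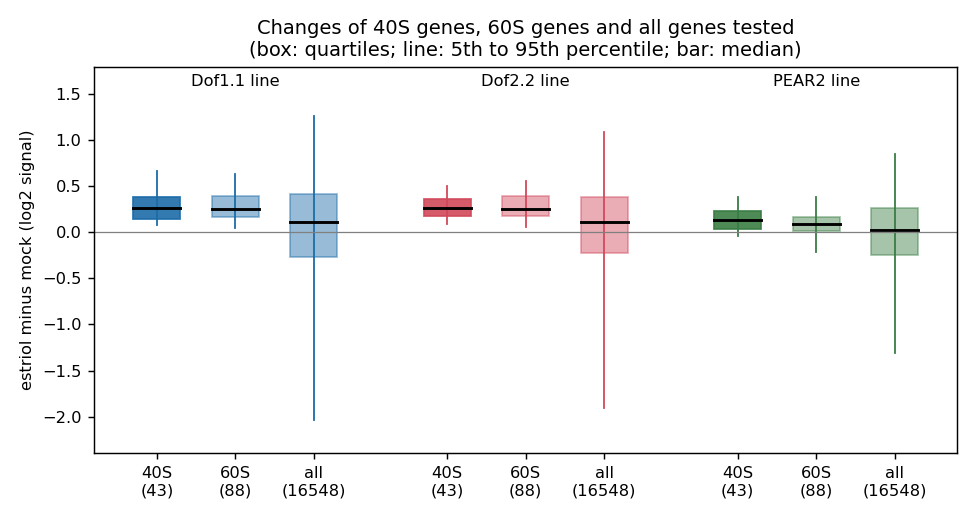
Estriol minus mock changes (log2 signal, y axis) of the 43 genes for 40S proteins, 88 genes for 60S proteins and all 16548 genes tested, by line, with boxes for the quartiles, lines from the 5th to the 95th percentile and bars at the medians. The 40S and 60S boxes lie above 0 in all 3 lines and are narrower than the box of all genes.

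A further 38 loci of 40S families stand outside the 60, and 17 were measured, with 4, 3 and 1 that rose in Dof1.1, Dof2.2 and PEAR2 roots, 7 that rose in the mean and 0 that fell. These are 23.5%, 17.6%, 5.88% and 41.2% of the 17, beside 17.8%, 14.8%, 8.33% and 26.2% of all genes. With paired arrays 6, 5, 4 and 9 rose (35.3%, 29.4%, 23.5% and 52.9%, beside 21.2%, 18.7%, 10.2% and 29.7% of all genes). The largest of these changes were in the S15 family. AT5G43640 had 5.85 and 5.77 on estriol, against 3.35 and 3.14 on mock plates, in Dof1.1 roots, with a mock mean below the lower quartile of all entries. It rose by 2.57 ± 0.20 there (adjusted p = 6.28e-06) and by 1.27 ± 0.20 in Dof2.2 roots (adjusted p = 0.0009), and had 0.51 ± 0.20 in PEAR2 roots (adjusted p = 0.12, and 0.0438 with paired arrays). By limma's test of the difference between lines, 1 of the 17 genes passed for Dof1.1 minus PEAR2, where the largest difference was 2.06 and 2.91% of all genes passed. For Dof1.1 minus Dof2.2 and Dof2.2 minus PEAR2 0 passed. With paired arrays AT5G43640 passed for Dof1.1 minus Dof2.2 (limma adjusted p = 0.0451, against 0.0607 without pairs). AT5G09500, the next protein-coding locus before AT5G09510 in the TAIR10.1 annotation, had 7.02 and 7.20 on estriol and 4.11 and 4.59 on mock plates in Dof1.1 roots. It rose by 2.76 ± 0.32 in that line (adjusted p = 9.58e-05) and by 1.3 ± 0.32 in PEAR2 roots (adjusted p = 0.0189), and had 0.79 ± 0.32 in Dof2.2 roots (adjusted p = 0.1). AT5G09490, the locus before it, had 0.09 ± 0.27, -0.02 ± 0.27 and -0.30 ± 0.27 in Dof1.1, Dof2.2 and PEAR2 roots. AT2G40590 of the S26 family and AT4G34555 of the S25 family rose by 0.56 ± 0.11 (adjusted p = 0.00192) and 0.64 ± 0.14 (adjusted p = 0.00353) in the mean.

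Genes that act on ribosomes were measured in smaller numbers. Of 35 loci for ribosome assembly 11 were measured, and 5 rose and 0 fell in the mean, among them DIM1A, a methylase of the small subunit RNA, by 0.35 ± 0.09 (adjusted p = 0.00825). The background shares in the mean were 26.2% that rose and 19.8% that fell, as above. In Dof1.1, Dof2.2 and PEAR2 roots 2, 0 and 0 of the 11 rose, beside 17.8%, 14.8% and 8.33% of all genes. Of 15 nuclear loci for the plastid 30S subunit 3 were measured, and AT5G24490 fell by 0.45 in the mean (adjusted p = 0.0074). EIF4A-2, an initiation factor helicase, was 1 of 2 measured among 18 listed translation factors and rose by 0.49 ± 0.16, 0.76 ± 0.16 and 1.01 ± 0.16 in Dof1.1, Dof2.2 and PEAR2 roots (adjusted p = 0.0431, 0.00627 and 0.00176). The other measured translation factor, AT2G40290, had a mean change of 0.11 ± 0.08 (adjusted p = 0.313). RAPTOR1, a partner of the TOR kinase that controls ribosome production, was 1 of 2 measured of 8 and rose by 0.41 ± 0.09 in the mean (adjusted p = 0.00279). The other of the 2, AT5G63190, fell by 0.33 in the mean (adjusted p = 0.00914).

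Markers of cell types moved with the same contrasts. Of 14 markers of proliferating cells 2 were measured, and both rose in every line: AUR1, a mitotic kinase, by 1.36 ± 0.15, 1.03 ± 0.15 and 0.76 ± 0.15 in Dof1.1, Dof2.2 and PEAR2 roots (adjusted p = 7.61e-05, 0.000636 and 0.00639), and AT4G32700 by 0.89 ± 0.18, 0.55 ± 0.18 and 0.66 ± 0.18. Their mean log2 signal was 8.81 to 8.83 on estriol and 7.64 to 7.75 on mock plates in Dof1.1 roots. It was 8.0 to 8.13 on estriol and 7.23 to 7.33 on mock plates in Dof2.2 roots, and 8.71 to 8.74 on estriol and 7.97 to 8.06 on mock plates in PEAR2 roots. The estriol arrays were thus higher in every line.

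Of 10 markers of root hair cells 3 were measured, EXPA7, EXPA18 and AT1G30870, and all fell in every line, with changes of -3.98 to -3.49 in Dof1.1 roots, -5.17 to -4.39 in Dof2.2 roots and -2.17 to -1.88 in PEAR2 roots. Their mean log2 signal was 5.83 to 5.99 on estriol and 9.52 to 9.84 on mock plates in Dof1.1 roots, 4.71 to 4.85 on estriol and 9.51 to 9.60 on mock plates in Dof2.2 roots, and 8.27 to 8.46 on estriol and 10.32 to 10.40 on mock plates in PEAR2 roots. Of 16 markers of leaf photosynthesis 1 was measured, LHB1B2, at 6.45 to 8.13 over the arrays with no change past the threshold, and of 8 sieve element markers 0 were measured. No measured marker of these lists had a group mean below the lower quartile of all entries. The part of these cell types in the changes of the 40S genes was not tested.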

How the data were processed

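Values are log2 signals deposited by the authors with 2 decimals for 28583 entries on 12 arrays. Per the submitters' processing notes RMA was used, with no version, and the genome build is not given in the sources used here. Of 17481 entries in the probe annotation, 16722 name 1 gene. These were matched to TAIR10.1 by Entrez identifier (16574), by name (146) or kept as given (2). The entry with the highest mean was taken for each gene, 148 of which had several, leaving 16548.

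One limma 3.58.1 model (R 4.3.3) of 6 group means with empirical Bayes moderation (6 residual and 3.944 prior degrees of freedom) gave the contrasts, with two-sided p-values adjusted over all genes. Paralogue pairs were tested by exact permutation within lines. The fit and the permutation were tested on simulated data with independent noise on each array. Shifts shared by many genes or by same-numbered arrays were not simulated.

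Within a line, same-numbered arrays deviated together over all genes (correlations of 0.3177 for Dof1.1, 0.168 for Dof2.2 and 0.1273 for PEAR2). Between groups of different lines the correlations were -0.08329 to 0.1142, so the PEAR2 value was little above these. The sample titles give replicate numbers only. The numbers were taken to pair the arrays of a line, and this pairing is an assumption. Paired values are printed beside each result on the 43 genes whose call they alter, and as counts for the lists of ribosomal protein genes. The fit was repeated without each array, with blocks, with a 2-fold minimum, after quantile normalization or centring on the 75th percentile, without the lowest 0.25 of genes by signal (below 3.243), with array weights or trended robust moderation, on all entries, and on one line at a time. The mean of 2 lines was added after seeing the data.

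The members and lists were chosen with earlier results of these data known. Genes named by rule were, among the 43, the 5 largest rises and falls past the threshold in each line, the 5 largest rises and falls in the mean, and the widest paralogue pair of each family up to 10, and up to 4 genes of each other list by p. Other genes are named to account for all 43, and AT5G09490 was named after its values were seen. No sequences were printed.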

Additional observations from a re-analysis of the deposited data

Results flagged for a closer look

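AT3G10610 of the S17 family moved one way in the Dof2.2 line and the other way in the PEAR2 line, by arrays. Both estriol arrays (9.41 and 9.50) were above both mock arrays (9.30 and 9.31) in the Dof2.2 line, a change of 0.15 ± 0.23, and both estriol arrays (9.13 and 9.06) were below both mock arrays (9.26 and 9.41) in the PEAR2 line, a change of -0.24 ± 0.23. The difference of 0.39 ± 0.32 between the responses did not pass the threshold (limma adjusted p = 0.767, 95% interval -0.33 to 1.11). The groups hold 2 arrays each, too few for a check of single outlying samples.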

How the results depend on the processing

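No gene of the 43 fell past the threshold in a line or in the mean under any alternative that gave a count. The count that rose in the Dof1.1 line (6) was 12 with same-numbered arrays as a block and 2 with only the arrays compared. In the Dof2.2 line (1) it was 7 with these pairs as a block, 2 with the number over all lines as a block, 3 without the lowest 0.25 of genes by signal, 4 with trended robust moderation, and 0 with array weights or with only the arrays compared. In the mean (15) it was 25 with the pairs as a block and 5 in the mean of the Dof2.2 and PEAR2 lines alone, and the block moved no count in the PEAR2 line (1). A 2-fold minimum left 0 genes in every line and in the mean. Without each array in turn the counts were 1 to 10 (Dof1.1), 0 to 3 (Dof2.2), 0 to 1 (PEAR2) and 11 to 20 (mean), and the medians were 0.06 to 0.50, 0.24 to 0.30, 0.08 to 0.17 and 0.13 to 0.29. The single PEAR2 call was lost without any 1 of the PEAR2 arrays, and the single Dof2.2 call without Dof2.2 mock array 2, Dof2.2 estriol array 2 or any PEAR2 array. The tests between lines called 0 of the 43 genes in each case, and 8 to 12 paralogue pairs had a permutation p under 0.05. The median mock level between lines moved to -0.10 (Dof1.1 minus Dof2.2), 0.08 (Dof1.1 minus PEAR2) and 0.09 (Dof2.2 minus PEAR2) after quantile normalization. The causes of these differences between settings were not tested.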
